A study of Mus musculus with 12 samples.

Results

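The genes described here are 10 immediate early and AP-1 genes, namely Fos, Fosl1, Fosl2, Jun, Junb, Jund, Egr1, Ier2, Ier3 and Dusp1. They are defined by name, not by a cutoff on measured values, and were found by their symbol in the count table, which holds 15113 genes. Reads were counted in myotubes of C2C12, a mouse myoblast line that fuses into multinucleated muscle fibers once serum is lowered. The cells of 6 libraries received 20 μM BAM15, a mitochondrial uncoupler, in DMSO, and those of the other 6 libraries received DMSO vehicle alone. Treatment lasted 16 h in both groups, so each value describes a late time point and not the first minutes of a stimulus. All libraries come from 1 cell line without any genetic change named in the sample records, and the records do not state whether the libraries of a group came from separate cultures, so the p-values measure the spread between libraries.

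Immediate early genes are transcribed within minutes of a growth factor or stress signal, from factors already present in the cell and without new protein synthesis. Several of them encode subunits of AP-1, a DNA-binding dimer. JUN proteins can pair with one another or with a FOS protein, whereas FOS proteins need a JUN partner. EGR1 is a zinc finger transcription factor that answers the same signals. DUSP1 is a phosphatase that removes the activating phosphates from MAP kinases and so ends the signal that induced it. In muscle cells AP-1 is known for its part in myoblast proliferation and in the response of fibers to load and stress.

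Promoter sequences are shown for Fos, Jun and Ier3, whose transcripts rose after BAM15, and for Dusp1, which holds a complete cyclic AMP response element (CRE). The letters are the 150 bases directly before the RefSeq start site on GRCm38.p6, and capitals mark motifs found on either strand.
Fos (chr12:85473740-85473889, plus strand): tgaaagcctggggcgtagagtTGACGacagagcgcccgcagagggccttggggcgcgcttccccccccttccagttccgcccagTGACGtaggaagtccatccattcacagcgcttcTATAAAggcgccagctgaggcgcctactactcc
Jun (chr4:95052223-95052372, minus strand): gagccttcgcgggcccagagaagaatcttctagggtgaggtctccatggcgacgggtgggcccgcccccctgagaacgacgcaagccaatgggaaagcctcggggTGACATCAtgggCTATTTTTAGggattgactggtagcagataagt
Ier3 (chr17:35821563-35821712, plus strand): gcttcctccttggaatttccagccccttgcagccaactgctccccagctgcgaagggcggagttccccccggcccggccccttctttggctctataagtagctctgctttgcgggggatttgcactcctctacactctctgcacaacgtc
Dusp1 (chr17:26508473-26508622, minus strand): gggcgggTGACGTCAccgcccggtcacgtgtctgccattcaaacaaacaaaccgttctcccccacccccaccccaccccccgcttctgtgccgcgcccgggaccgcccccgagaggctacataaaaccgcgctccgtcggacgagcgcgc
In Fos the capitals mark 2 CRE half-sites (TGACG) and the TATA box (TATAAA). In Jun they mark an 8-base variant of the AP-1 site (TGACNTCA, matched as TGACATCA) 45 bases before the start site and a site for MEF2, a muscle transcription factor, 33 bases before it. In Dusp1 they mark the CRE (TGACGTCA) 143 bases before the start site, which also matches the half-site and the 8-base variant. None of the searched motifs lay in the Ier3 stretch.

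RefSeq promoter windows, reaching from 250 bases before to 50 bases after the start site, were at hand for 7 of the 10 genes, and Fosl1, Egr1 and Ier2 had no entry. The CRE was found in 1.79% of all 32841 windows of this length, the CRE half-site in 20.8%, the 8-base variant in 8.83%, the MEF2 site in 3.19% and the TATA box in 13.6%. Among the 7 windows, Fos, Junb and Dusp1 held the half-site, and Fos and Junb held the letters TATAAA. In Fos these letters began 33 bases before the start site. In Junb they were bases 1 to 6 after it, so that match is not placed as a TATA box of this start site. This start site lies next to base 84978749, and GENCODE M21 starts the gene at 84978718 on the minus strand, downstream of these letters. Use of either start was not tested. An EGR site (GCGNGGGCG), found in 5.55% of all windows, lay in Fosl2 only. The 7-base AP-1 site (TGANTCA), the CArG box bound by SRF and the C/EBP-ATF site (TGATGNAAT) were in none of the 7 windows and in 7.81%, 1.63% and 0.965% of all windows. Bases beyond the windows were not searched, so absence from a window does not show that a gene lacks the site. On GRCm38 in GENCODE M21 the genes lie at chr12:85473890-85477273 (Fos), chr19:5447547-5455946 (Fosl1), chr5:32135801-32157842 (Fosl2), chr4:95049034-95052222 (Jun), chr8:84974484-84978718 (Junb), chr8:70698949-70700616 (Jund), chr18:34859823-34864984 (Egr1), chr8:84661331-84662852 (Ier2), chr17:35821684-35822923 (Ier3) and chr17:26505590-26562128 (Dusp1). The RefSeq start site matches the start of the gene in GENCODE M21 for Fos and Jun. It lies upstream of that start for Jund and Junb, and inside the gene for Fosl2, Ier3 and Dusp1. For Dusp1 the 2 are far apart, since the RefSeq start lies next to base 26508473 and the gene starts at 26562128 on the minus strand. For Jund the whole window lies before the gene. Its bases before the RefSeq start end at 70697738, and the gene starts at 70698949 on the plus strand.

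Between 13983725 and 18866728 reads per library were counted on genes. The libraries were prepared with QuantSeq, which reads the 3′ end of each transcript, so a count does not grow with transcript length. Other differences in how fully the reads of each gene were counted were not tested. Orders and shares that compare different genes are therefore approximate. Values below are normalized counts, which are read counts scaled for library size by the TMM method of edgeR. The cells expressed the markers of their label, since all 10 myotube genes checked were tested (2 rose, Acta1 and Myog, and 2 fell, Ckm and Mymk), with a summed level of 347601 to 461024 normalized counts after BAM15 and 366303 to 408136 with vehicle. Of the 6 genes of undifferentiated, cycling myoblasts, 3 fell (Pax7, Mki67 and Ccnb1) and 1 rose (Myf5), with a summed level of 1017 to 2009 after BAM15 and 1837 to 2240 with vehicle. In these bulk samples fewer cells of a type cannot be told apart from less RNA per cell. Endothelial markers were at or near 0, with Pecam1, Cdh5 and Kdr not in the table and a summed level of at most 12.2, and of the macrophage markers only Cd68 and Csf1r were in the table, with a summed level of 59.5 to 86.4 after BAM15 and 11.8 to 27.8 with vehicle. Of the 5 fibroblast markers 4 were in the table and 2 were tested, of which 1 fell (Dcn), with a summed level of 2396 to 2978 after BAM15 and 4062 to 4515 with vehicle. The part of these markers in the results below was not tested. BAM15 libraries numbered 4 to 6 stood apart from those numbered 1 to 3. When the 4 combinations of condition and number range were fitted as separate groups, 24.2% of the tested genes differed between the BAM15 libraries of the 2 ranges at an adjusted p-value below 0.01. Among vehicle libraries that edgeR test called 0 genes, with 696 at an unadjusted p-value below 0.05. The labels name no batch, and results are therefore given for all libraries and within each number range.

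With vehicle, the 10 genes differed widely in abundance. Jund was the most abundant (2842 ± 289 normalized counts, SD, n = 6), followed by Jun (2522 ± 207), Junb (1947 ± 205), Ier3 (1655 ± 159), Fosl2 (1527 ± 90.5), Egr1 (1462 ± 174), Dusp1 (697 ± 106), Ier2 (172 ± 27.9), Fosl1 (129 ± 17.9) and Fos (38.1 ± 8.38). Neighbors in this order whose libraries did not overlap were Jun above Junb, Egr1 above Dusp1, Dusp1 above Ier2 and Fosl1 above Fos. The libraries of Jund and Jun overlapped, as did those of each pair of neighbors from Junb down to Egr1, and those of Ier2 and Fosl1. Fos, the best known immediate early gene, was the least abundant of the 10 in vehicle-treated myotubes.

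To determine whether BAM15 altered these transcripts, the quasi-likelihood test of edgeR was used, and every adjusted p-value is Benjamini-Hochberg adjusted over the 12730 genes tested in that fit (12898 and 12849 genes within library numbers 1 to 3 and 4 to 6). All 10 genes passed the filter on low counts. At an adjusted p-value below 0.01, 5 genes rose (Fos, Ier3, Ier2, Jun and Fosl2), 1 fell (Egr1) and 4 did not pass (Fosl1, Junb, Jund and Dusp1). Of all tested genes, 42.3% were called by this rule, 22.0% higher and 20.3% lower, so a count of 6 in 10 genes was not read as particular to them. Of the tested genes with a base mean above 100, 44.9% were called. Only Fos also had a change of more than 2-fold and a base mean above 50 normalized counts, thresholds that 7.28% of all tested genes passed, 3.7% higher and 3.58% lower. The libraries of the 2 groups did not overlap for Fos, Jun, Ier3 and Egr1, that is for 4 of 10 genes against 34.2% of all tested genes (17.1% with BAM15 higher and 17.0% lower). Log2 fold changes had a median of 0.25 over the 10 genes and 0.02 over all tested genes.

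**Figure D1:**
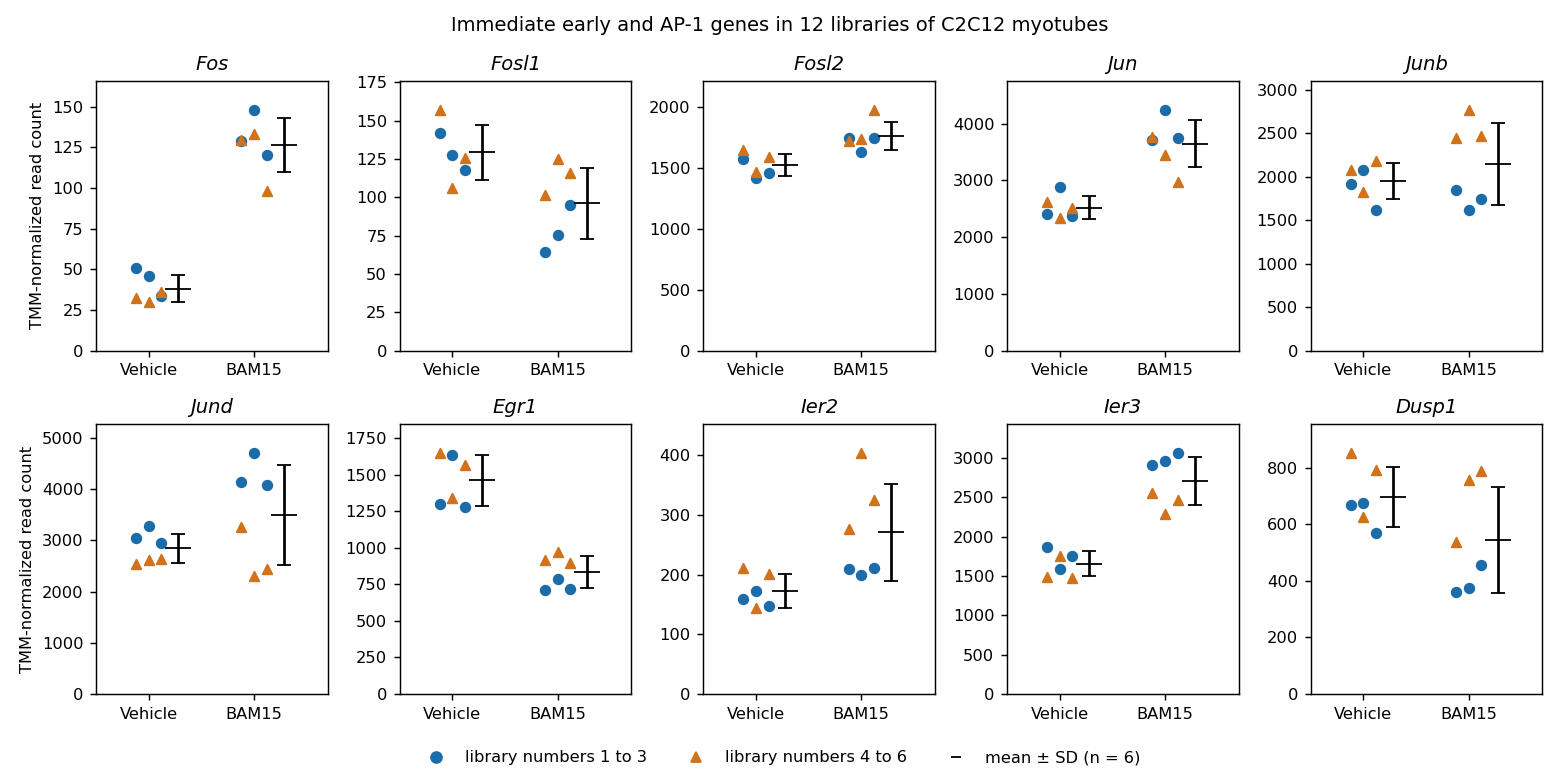
Normalized read count (linear axes that start at 0) of each gene in the 6 vehicle and 6 BAM15 libraries; circles are library numbers 1 to 3, triangles numbers 4 to 6, and bars the mean ± SD of 6. Fos, Jun and Ier3 lie higher and Egr1 lower in every BAM15 library than in any vehicle library. Within BAM15 circles and triangles do not overlap for Fosl1, Junb, Jund, Egr1, Ier2, Ier3 and Dusp1. With vehicle they do not overlap for Jund. The share of all tested genes without such overlap was not determined, so this is not read as particular to these genes. In edgeR, 24.2% of all tested genes differed between BAM15 numbers 4 to 6 and 1 to 3 at an adjusted p-value below 0.01.

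Fos encodes the founding member of the FOS family. It ranged from 29.9 to 51.1 normalized counts with vehicle (median 34.8) and from 98.0 to 148 after BAM15 (median 129). The lowest BAM15 library (number 6) was still above the highest vehicle library (number 1). The log2 fold change was 1.72, a 3.30-fold increase (standard error, SE, 0.15, adjusted p = 1.26e-07 from edgeR, higher in 6 of 6 BAM15 libraries). Fos was also called within each number range (1.60 in numbers 1 to 3 and 1.86 in numbers 4 to 6), where 44.4% and 33.2% of the genes tested were called, and none of the alternatives tried took it below the threshold. With at most 58 reads in a vehicle library and 142 in a BAM15 library, it remained a low count transcript in both groups.

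Fosl2 and Fosl1 encode FRA-2 and FRA-1, FOS-related proteins that lack the strong activation domain of FOS. Fosl2 ranged from 1420 to 1649 normalized counts with vehicle (median 1522) and from 1628 to 1975 after BAM15 (median 1743). The groups overlapped in 1 library, since 5 of 6 BAM15 libraries were above every vehicle library. Its log2 fold change was 0.20, a 1.15-fold increase (SE 0.06, adjusted p = 0.00775 from edgeR). This small change did not pass in 15 of the 25 alternatives (adjusted p = 0.00294 to 0.0840 over all of them), among them the fits without BAM15 library 1, 3, 4 or 6 and without vehicle library 1, 2, 3, 5 or 6 (0.0113 to 0.0238). It passed in neither number range (0.20, adjusted p = 0.0118 in numbers 1 to 3, and 0.20, adjusted p = 0.0780 in numbers 4 to 6). Fosl1 ranged from 106 to 157 normalized counts with vehicle (median 127) and from 64.1 to 125 after BAM15 (median 98.2). All 6 BAM15 libraries were below the vehicle mean, 4 of them below every vehicle library. Its log2 fold change of −0.43 did not pass (SE 0.15, adjusted p = 0.0292 from edgeR), but passed within numbers 1 to 3 (−0.72, adjusted p = 9.89e-04) and without BAM15 library 5 (−0.52, adjusted p = 0.00803). Exons of Ccdc85b on the opposite strand cover all of the last 400 bases of the Fosl1 transcript. The strand used for counting is not given in the sources used here, so it is not known whether reads of the 2 genes were kept apart. None of the other 9 genes had an exon of another gene, or a 50-base window shared with one, in its last 400 bases.

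Reads of the FOS family were dominated by Fosl2 in both groups. Fosl2 made up 90.1% ± 0.99 (SD, n = 6) of the 3 genes' normalized counts with vehicle and 88.7% ± 1.25 after BAM15. The share of Fos was 1.77% to 2.89% with vehicle and 4.48% to 7.99% after BAM15, without overlap. The share of Fosl1 moved the other way, from 6.62% to 8.54% with vehicle to 3.30% to 6.25% after BAM15. With vehicle Fosl1 had more reads than Fos in every library. After BAM15 the means were 126 ± 16.6 for Fos and 96.1 ± 23.2 for Fosl1. Fos was above Fosl1 in BAM15 libraries 1 to 5, narrowly in number 5 (133 against 125), and below it in number 6 (98.0 against 116). These shares restate the counts above and were given no test of their own.

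Jun, Junb and Jund encode the JUN proteins, of which JUN is the strong activator. Jun ranged from 2331 to 2885 normalized counts with vehicle (median 2466) and from 2973 to 4240 after BAM15 (median 3728). The groups did not overlap, although the lowest BAM15 library (number 6) and the highest vehicle library (number 2) were close. The log2 fold change was 0.53, a 1.45-fold increase (SE 0.08, adjusted p = 4.29e-05 from edgeR, higher in 6 of 6 BAM15 libraries). It was 0.61 within numbers 1 to 3 and 0.44 within numbers 4 to 6, and it passed under every alternative tried.

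Junb ranged from 1616 to 2177 normalized counts with vehicle (median 1993) and from 1621 to 2767 after BAM15 (median 2147). Its log2 fold change of 0.14 did not pass (SE 0.13, adjusted p = 0.374 from edgeR), and 3 BAM15 libraries were above and 3 below the vehicle mean. The 3 above were numbers 4 to 6 (2449 to 2767) and the 3 below were numbers 1 to 3 (1621 to 1844). Jund was instead higher in BAM15 numbers 1 to 3 than in numbers 4 to 6. Of its BAM15 libraries, 4 were above and 2 below the vehicle mean. It ranged from 2540 to 3273 normalized counts with vehicle (median 2791) and from 2313 to 4705 after BAM15 (median 3669), with numbers 1 to 3 at 4081 to 4705 and numbers 4 to 6 at 2313 to 3258. With vehicle, numbers 1 to 3 (2946 to 3273) also lay above numbers 4 to 6 (2540 to 2637). The log2 fold change of Jund was 0.30 (SE 0.16, adjusted p = 0.141 from edgeR).

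The make-up of the JUN family differed between library numbers after BAM15. The share of Jun was 32.8% to 36.2% with vehicle and 37.8% to 40.5% after BAM15, without overlap. The share of Junb was 23.3% to 29.7% with vehicle and 15.3% to 32.4% after BAM15. For Jund the shares were 35.1% to 42.5% and 27.1% to 44.5%, so that Junb and Jund ranged more widely after BAM15 than with vehicle. Summed over the 3 genes, 6775 to 8231 normalized counts were found with vehicle and 7871 to 10566 after BAM15.

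**Figure D2:**
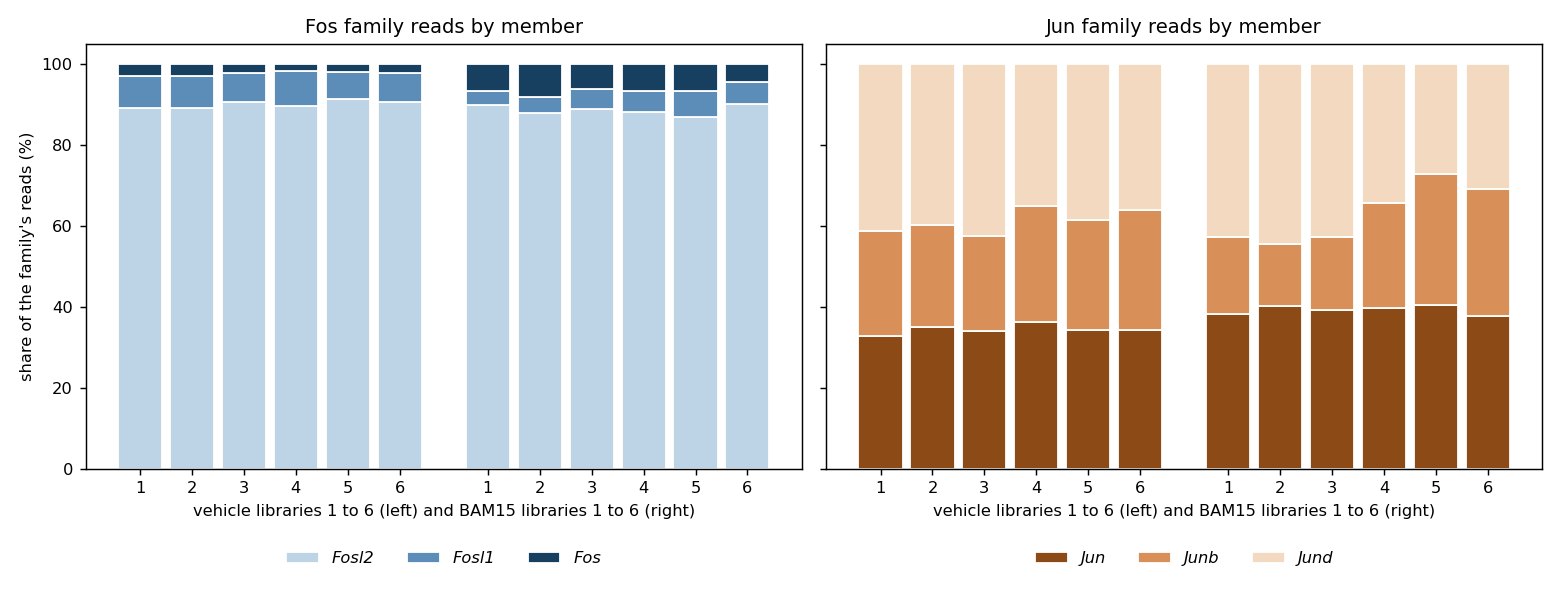
Share (%) of each member in the normalized counts of the FOS family (left) and of the JUN family (right), 1 bar per library with vehicle libraries on the left and BAM15 libraries on the right of each panel. Fos takes 1.77% to 2.89% of its family with vehicle and 4.48% to 7.99% after BAM15, and among BAM15 libraries Junb takes its largest and Jund its smallest shares in numbers 4 to 6.

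Egr1 was the only one of the 10 genes that fell. It ranged from 1276 to 1648 normalized counts with vehicle (median 1455) and from 712 to 974 after BAM15 (median 842). Every BAM15 library was below every vehicle library. The log2 fold change was −0.81 (SE 0.10, adjusted p = 4.59e-06 from edgeR, lower in 6 of 6 BAM15 libraries), and the level after BAM15 was 0.570 times that with vehicle. It was −0.93 within numbers 1 to 3 and −0.72 within numbers 4 to 6, and it passed under every alternative tried.

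Ier3 encodes a short-lived protein linked to cell survival and ERK signaling, and IER2 is a nuclear protein of the same early response. Ier3 ranged from 1479 to 1870 normalized counts with vehicle (median 1671) and from 2291 to 3062 after BAM15 (median 2734). The groups did not overlap, and within BAM15 numbers 1 to 3 were higher (2908 to 3062) than numbers 4 to 6 (2291 to 2561). The log2 fold change was 0.71, a 1.64-fold increase (SE 0.08, adjusted p = 3.90e-06 from edgeR, higher in 6 of 6 BAM15 libraries). Ier2 ranged from 144 to 211 normalized counts with vehicle (median 166) and from 200 to 404 after BAM15 (median 244). BAM15 libraries 4 to 6 (277 to 404) were above every vehicle library, whereas numbers 1 to 3 (200 to 212) reached into the vehicle range. The log2 fold change of Ier2 was 0.65 (SE 0.17, adjusted p = 0.00545 from edgeR), and 6 of 6 BAM15 libraries were above the vehicle mean. It did not pass in 8 of the 25 alternatives (adjusted p = 3.31e-04 to 0.0175 over all of them). These included the fits without BAM15 library 4 or 6 and without vehicle library 1, 2, 3 or 5 (adjusted p = 0.0116 to 0.0149). Ier2 did not pass in numbers 1 to 3 (0.37, adjusted p = 0.0102) and passed in numbers 4 to 6 (0.85, adjusted p = 0.00154).

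Dusp1 ranged from 568 to 851 normalized counts with vehicle (median 672) and from 359 to 789 after BAM15 (median 498). BAM15 libraries 1 to 3 (359 to 457) were below every vehicle library, and of numbers 4 to 6 (538 to 789) 1 was. Its log2 fold change of −0.35 did not pass (SE 0.20, adjusted p = 0.146 from edgeR). It passed in numbers 1 to 3 (−0.69, adjusted p = 9.68e-06) but not in numbers 4 to 6 (−0.13, adjusted p = 0.517) in the edgeR fits of each range.

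To describe this spread, BAM15 libraries 4 to 6 were compared with BAM15 libraries 1 to 3 in the model with 4 groups. At an adjusted p-value below 0.01, 5 of the 10 genes differed, against 24.2% of all tested genes (13.5% higher and 10.7% lower in numbers 4 to 6). Higher in numbers 4 to 6 were Dusp1 (log2 difference 0.81 ± 0.15, standard error, adjusted p = 0.00118), Ier2 (0.70 ± 0.15, adjusted p = 0.00144) and Junb (0.56 ± 0.09, adjusted p = 2.73e-04), all from edgeR. Lower were Jund (−0.69 ± 0.10, adjusted p = 2.09e-04) and Ier3 (−0.29 ± 0.08, adjusted p = 0.00730) in the same test. Fos (−0.13, adjusted p = 0.558), Fosl2 (0.08, adjusted p = 0.386) and Jun (−0.20, adjusted p = 0.0981) did not pass, nor did Fosl1 (0.54, adjusted p = 0.0230) or Egr1 (0.33, adjusted p = 0.0129).

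Between the vehicle libraries of the 2 number ranges, 0 of the 10 genes passed in that edgeR model, while Jund (log2 difference −0.25) was the 1 gene with an unadjusted p-value below 0.05. The difference in the BAM15 effect between the number ranges was then tested directly. By this edgeR test 0 of the 10 genes passed at an adjusted p-value below 0.01, as did 0 of all tested genes. At the unadjusted level of 0.05, 5 of the 10 genes and 3313 of all tested genes passed. The differences of these 5 genes were 0.56 ± 0.21 for Dusp1 (adjusted p = 0.122), 0.54 ± 0.24 for Fosl1 (0.174), 0.48 ± 0.21 for Ier2 (0.162), −0.44 ± 0.14 for Jund (0.0825) and 0.44 ± 0.13 for Junb (0.0622). The effect of BAM15 on these 5 genes is thus not shown to differ between number ranges, although Jund passed within numbers 1 to 3 (log2 fold change 0.48, adjusted p = 3.80e-06) and not within numbers 4 to 6 (0.03, adjusted p = 0.858), and Junb passed within numbers 4 to 6 (0.33, adjusted p = 0.00853) and not within numbers 1 to 3 (−0.11, adjusted p = 0.260).

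**Figure D3:**
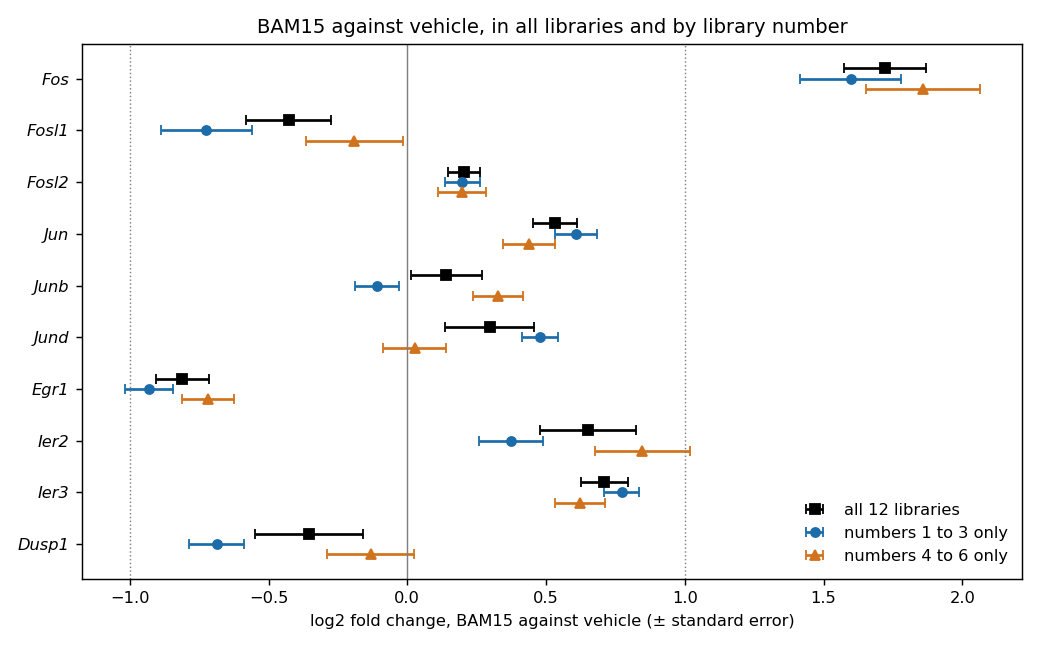
Log2 fold change of BAM15 against vehicle with its standard error for each gene, from all 12 libraries (squares), from numbers 1 to 3 (circles) and from numbers 4 to 6 (triangles); dotted lines mark a 2-fold change. Fos lies beyond the 2-fold line in all 3 fits, and Junb lies on opposite sides of 0 in the 2 number ranges.

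Fos was the only gene of the 10 past all 3 thresholds, and the tested genes with a base mean above 50 were searched for the patterns most like it. Likeness was the root-mean-square difference over the 12 libraries between log2 values that were each set to 0 at the gene's vehicle mean. The closest were Cebpb (difference 0.14, log2 fold change 1.65), which encodes a basic leucine zipper factor, Tfap4 (0.15, 1.63), which encodes a helix-loop-helix factor, and Ifi202b (0.22, 1.55).

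The rest of the pathway was described by 6 lists, at the same adjusted p-value below 0.01. Of the AP-1 partners and competitors, 8 of 11 were in the table and tested, of which 4 rose, 0 fell and 4 did not pass (median log2 fold change 0.51). Beside this and each count below stand the 22.0% of all tested genes that were higher and the 20.3% that were lower, with a median of 0.02. Atf3, a stress-induced repressor that can pair with JUN, ranged from 46.5 to 85.4 normalized counts with vehicle and from 1826 to 2013 after BAM15 (log2 fold change 4.71 ± 0.12, adjusted p = 1.88e-13 from edgeR). The small MAF genes rose together, with log2 fold changes of 1.00 for Mafk, 1.00 for Maff and 0.92 for Mafg. For Mafg, exons of Sirt7 on the same strand cover 124 of the last 400 bases and 21.4% of the 50-base windows there are found in another gene. Fosb, the remaining FOS gene, was nearly silent (9.04 to 19.1 normalized counts with vehicle and 5.84 to 22.7 after BAM15) and did not pass (−0.17, adjusted p = 0.641). Batf, Batf2 and Batf3 were not in the table.

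Of 15 other immediate early transcription factors 12 were tested, and 7 rose, 2 fell and 3 did not pass (median 0.72), against 22.0% higher and 20.3% lower over all tested genes. Per1, a clock repressor, was 5.48-fold higher (log2 fold change 2.46 ± 0.08, adjusted p = 2.04e-12 from edgeR), and Nfil3 (1.65), Klf4 (1.09) and Nr4a2 (0.73) rose as well. The falls were in Egr2 (−1.73 ± 0.16, adjusted p = 2.32e-07 from the same test) and Klf2 (−1.02). Egr2, a relative of Egr1, ranged from 102 to 159 normalized counts with vehicle and from 29.2 to 50.7 after BAM15. Egr3 had few reads and did not pass (−0.69, adjusted p = 0.220), and Egr4 was not in the table. Among 24 other immediate early effectors 13 rose, 4 fell and 7 did not pass (median 0.83), and 4 of 24 lower is near the 20.3% of all tested genes. The largest increases were in Ptgs2 (4.73), Pim1 (2.78), Gadd45a (2.18) and Ccn1 (1.75), and the falls were in Rhob (−1.02), Ier5l (−0.66), Homer1 (−0.61) and Zfp36l1 (−0.49).

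Genes upstream of the 10 are listed as the MAP kinase cascade with SRF and its partners. Of 29 tested genes 1 rose, 9 fell and 19 did not pass (median −0.09), beside 22.0% higher and 20.3% lower over all tested genes. With 42.3% of all tested genes called, the number that did not pass was not read as particular to this list. The rise was in Braf (0.56), with exons of Ndufb2 on the opposite strand in its last 400 bases. The largest falls were in Elk3 (−1.04), a partner of SRF, Egfr (−0.86), the receptor for EGF, Mef2c (−0.78), a muscle transcription factor, and Mrtfb (−0.72), an actin-regulated SRF coactivator. Srf itself did not pass (0.13, adjusted p = 0.192 from edgeR). The summed level of the list was 47160 to 49227 normalized counts after BAM15 and 61763 to 63873 with vehicle. Abundant genes weigh most in this sum, which was not tested. Of the 15 feedback inhibitors of MAP kinases other than Dusp1, 2 rose, 1 fell and 12 did not pass (median 0.15), where 42.3% of all tested genes were called. Dusp4 rose from 138 ± 19.2 to 296 ± 29.5 normalized counts (log2 fold change 1.10) and Dusp16 from 287 ± 12.9 to 519 ± 72.8 (0.86), whereas Spred1 fell (−0.29).

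Known AP-1 target genes moved in both directions. Of 15 tested, 6 rose, 6 fell and 3 did not pass (median 0.13), where 22.0% of all tested genes were higher and 20.3% lower. The increases included Areg (log2 fold change 2.71), Hmox1 (2.05) and Vegfa (1.69), and the falls included Plau (−1.68), Ccnd1 (−1.42) and Timp1 (−1.23). Exons of LTO1 on the opposite strand cover the last 400 bases of Ccnd1. Mmp13 had at most 3 reads in every vehicle library and its BAM15 mean was at least 14.2-fold higher than a floor of 3 counts per library, a bound for counting error only. The list median stayed at 0.13 with Mmp13 at that bound. Mmp13, Srf, Fosb and Egr3 were picked for mention after their values were seen. Mmp3, Mmp9 and Mmp10 were not in the table. Within the 2 number ranges the counts for these 6 lists differed by at most 3 genes in either direction from those of all libraries. Of the genes named from them as rising or falling, 4 did not pass within numbers 4 to 6, namely Braf (0.30, adjusted p = 0.0669), Spred1 (−0.28, adjusted p = 0.0287), Ier5l (−0.28, adjusted p = 0.162) and Ccn1 (1.99, adjusted p = 0.0111), all from edgeR. Numbers 4 to 6 thus held 0 higher genes among the MAP kinase and SRF inputs and 0 lower genes among the feedback inhibitors.

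**Figure D4:**
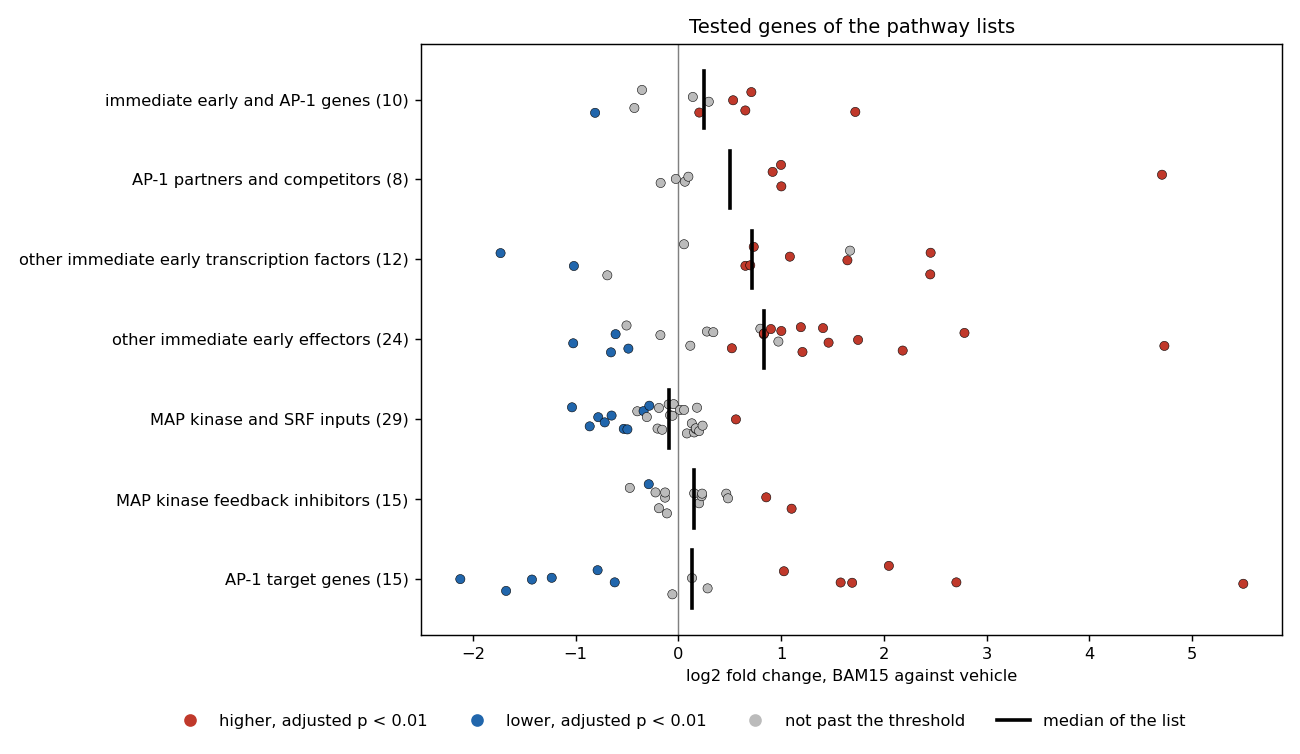
Log2 fold change of BAM15 against vehicle for every tested gene of the 7 lists, with the number tested in parentheses; red points are higher and blue points lower at an adjusted p-value below 0.01, grey points did not pass, and the vertical bar is the median. The point farthest to the right is Mmp13, whose fitted value depends on a vehicle level of at most 3 reads. The MAP kinase and SRF inputs run from −1.04 (Elk3) to 0.56 (Braf), with a median of −0.09.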

How the data were processed

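The authors prepared 3′ QuantSeq libraries from RNA of 12 C2C12 myotube samples, aligned and counted the reads with BlueBee software (aligner and strand setting not given in the sources used here), and deposited whole-number counts per Ensembl gene. The labels name GRCm38 and DESeq2 1.22.2. The authors also deposited a normalized signal, in which each library's counts are divided by its size factor (0.836 to 1.07), a table that supplied the gene symbols. Each table holds 11 further columns that match no sample and were not used. Samples were grouped by their labels. Counts were analysed in R 4.3.3 with edgeR 4.0.16 (filterByExpr, which removed 2383 genes, TMM factors 0.932 to 1.04, robust quasi-likelihood test, Benjamini-Hochberg adjustment, condition as the only term). Thresholds followed the study's methods (adjusted p-value below 0.01, base mean above 50, change above 2-fold), and standard errors are the log2 fold change over the square root of F. No library was a copy of another (chi-square per gene 4.46 to 73.0 over pairs within a group). Symbols for 2260 of 2293 identifiers without one, positions and exon overlaps came from GENCODE M21. Alternatives used DESeq2 1.42.0, limma 3.58.1, other scalings and filters, blocks, number ranges and each library left out. Within the lists, up to 4 risers and 4 fallers with a base mean above 50 were named, by size of change, except 1 gene that is not reported here. The 10 genes, lists, thresholds and number ranges were chosen with earlier results of these data known, and the CRE half-site, 8-base variant and MEF2 site were added after a first motif search. The tests were checked on simulated data, and figures drawn with matplotlib 3.10.9.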

Additional observations from a re-analysis of the deposited data

Results flagged for a closer look

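In 20 groups of 6 libraries (10 genes in each condition), 1 library lay far from the rest by Dixon's criterion for 6 samples. This was BAM15 library 6 for Fosl2, with 1975 normalized counts against 1628 to 1748 in the other BAM15 libraries. Chance marks about 1 in 20 such groups. Without this library the log2 fold change of Fosl2 was 0.17 (adjusted p = 0.0174, edgeR with Benjamini-Hochberg adjustment).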

How the results depend on the processing

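The number of the 10 genes past an adjusted p-value of 0.01 was 6, and 4 to 7 over the alternatives. Fos, Jun, Egr1 and Ier3 passed in all 25 alternatives. How many of all tested genes did so was not determined, and 42.3% of them passed in the main fit. Of the 10 genes, 1 (Fos) passed all 3 thresholds under every alternative except a log2 fold change above 2, which 0 passed and under which all tested genes past the thresholds went from 927 to 189. Without the base mean threshold that number was 1457. The log2 fold change of Junb changed sign within numbers 1 to 3 (−0.11), and the cause was not tested. Leaving out 1 library gave 4 to 7 genes, 1 past all thresholds each time, and 922 to 955 of all tested genes. The library numbers are shared between conditions, but same-numbered libraries deviated together in only 4 of 6 pairs at a correlation above 0.1 (−0.08 to 0.31), so they were not treated as pairs, and 2 of 6 BAM15 libraries correlated best with their own number. BAM15 libraries 1 to 3 all correlated best with vehicle library 3 and BAM15 libraries 4 to 6 with vehicle library 6, so 6 of 6 matched a vehicle library of their own number range. Since the libraries of a range shared their best match, these are not 6 separate matches. With a replicate block 6 genes passed, and 933 of all tested genes passed the thresholds. Depth limits the low counts most, with 29 to 142 Fos reads per library. The sources used here name no molecular identifiers, so PCR copies may be counted as separate reads.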
